A study of Arabidopsis thaliana with 6 samples.

Results

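ATP-citrate lyase cleaves citrate in the cytosol, using ATP and coenzyme A, and yields acetyl-CoA and oxaloacetate. In Arabidopsis thaliana its A subunit is encoded by ACLA-1 (AT1G10670), ACLA-2 (AT1G60810) and ACLA-3 (AT1G09430), and its B subunit by ACLB-1 (AT3G06650) and ACLB-2 (AT5G49460). The 5 genes were taken by locus, as a family chosen on its induced against uninduced values, and 4 of the 5 were measured, each by 1 probe paired with that gene alone, the mean level of the probe being the criterion where a gene has several, among 16550 genes named in the array annotation. All 3 A subunit genes and 1 of the 2 B subunit genes, ACLB-1, are among the 4. ACLB-2 had no probe paired with it in the annotation used and was not analysed here.

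In animals a single polypeptide carries the reaction, whereas in plants the enzyme is built from separate A and B subunits and both are needed for activity. Acetyl-CoA does not cross organelle membranes freely, so the cytosol depends on this reaction for its own pool, separate from the pools made in plastids and mitochondria. The cytosolic pool feeds the mevalonate pathway to sterols and other isoprenoids, the elongation of fatty acids for waxes, and, through malonyl-CoA, flavonoids.

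Affymetrix AraGene arrays were hybridised with RNA from a dark-grown suspension culture carrying an estrogen-inducible VND1-GFP construct. VND1 is a NAC transcription factor of the family that directs the formation of xylem vessel elements, the dead water-conducting cells of wood. 3 arrays hold cells kept for 24 h with 5 µM estrogen (induced), and 3 hold cells of the same genotype kept for 24 h without estrogen (uninduced). Both groups carry the construct and were kept at 23 °C on a shaker at 124 rpm. The arrays used here hold no estrogen-treated cells that lack it, so what VND1 does and what estrogen does cannot be told apart. Whether the arrays of a group come from separate cultures, and how many transformed lines were used, is not stated in the labels, so the spread between arrays, and every p-value, may be technical.

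Each array gave 1 value for each of 38408 probes, read as log2, with array medians between 5.41 and 6.15. By the array numbers in the titles, replicate 1 of both groups forms a run of 2 arrays and the rest a run of 4. The meaning of these numbers is not stated. Medians were 6.15 and 6.08 in the run of 2 and 5.41 to 5.55 in the run of 4. Differences are therefore given within each run as well. Precision is limited by the number of arrays. VND1 and the other listed xylem vessel markers had no probe paired with them in the annotation used, so neither the level of VND1 nor the vessel character of the cells was checked here.

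The A subunit genes differed among themselves, with ACLA-2 3.89-fold higher in induced cells, ACLA-1 2.13-fold higher and ACLA-3 1.11-fold higher. The ACLA-3 values overlapped between the groups. The single measured B subunit gene, ACLB-1, was 1.16-fold higher. These genes were put forward with this contrast already known, so its values are given as a description, with SD over 3 arrays and the standard error of the limma fit over all probes, and no test of the family is made. In bulk cultures a change in the number of cells that express a gene and a change in its RNA per cell cannot be told apart.

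ACLA-2 had values of 8.54, 8.29 and 8.20 on the log2 scale in induced cells, against 6.49, 6.15 and 6.51 in uninduced cells. The groups lay far apart, with the lowest induced array 1.69 above the highest uninduced one. The means were 8.34 ± 0.17 in induced cells and 6.38 ± 0.21 in uninduced cells (SD, n = 3 each), a log2 difference of 1.96 ± 0.17 (SE). Of all 38408 probes, 157 had a larger difference in the same direction. In uninduced cells the ACLA-2 probe lay above the median of each array, which was 5.48 to 6.08.

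ACLA-1 had values of 10.42, 9.83 and 9.97 in induced cells, against 9.28, 8.88 and 8.80 in uninduced cells (log2). The groups did not overlap, with a gap of 0.55, and in each group the array of the run of 2 was the highest. The means were 10.08 ± 0.31 in induced cells and 8.99 ± 0.26 in uninduced cells (SD, n = 3 each), a log2 difference of 1.09 ± 0.23 (SE), and 399 of the 38408 probes had a larger one.

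ACLA-3, the remaining A subunit gene, had values of 8.98, 8.77 and 8.81 in induced cells, against 8.84, 8.61 and 8.67 in uninduced cells (log2). The groups overlapped, since the uninduced array of the run of 2 lay above the induced arrays of the run of 4 by up to 0.07. The log2 difference was 0.15 ± 0.14 (SE), and 24.1% of all probes had a larger one.

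ACLB-1, which encodes the B subunit that joins the A subunits in the complex, had values of 9.67, 9.68 and 9.58 in induced cells, against 9.49, 9.47 and 9.34 in uninduced cells (log2). The groups did not overlap, but the gap was only 0.09, close to the SD of 0.05 in induced cells and 0.08 in uninduced cells. The log2 difference was 0.21 ± 0.12 (SE), and 17.5% of all probes had a larger one.

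**Figure D1:**
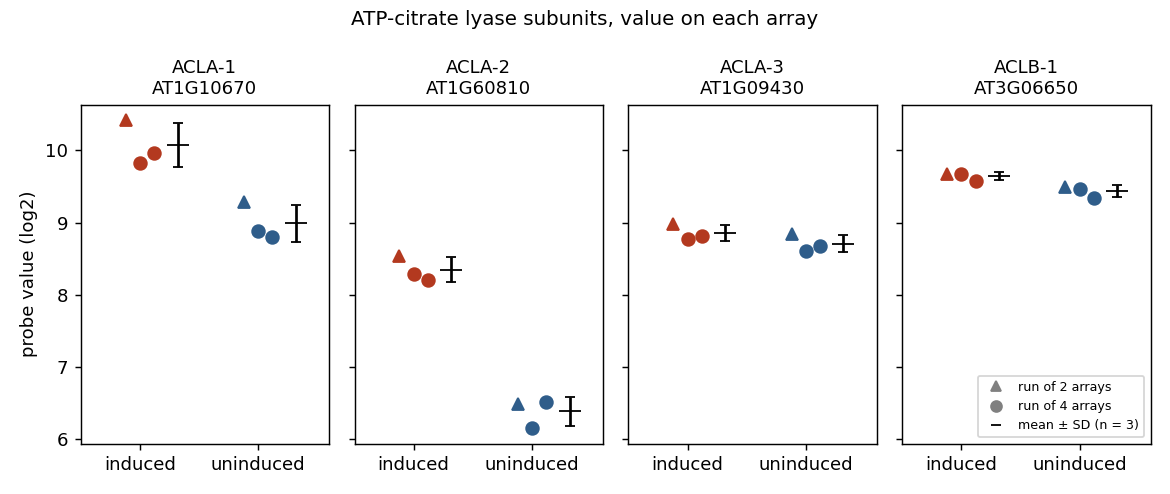
Value of each measured subunit gene on each array (vertical axis, log2), with induced arrays in red on the left and uninduced arrays in blue on the right of each panel; triangles are the run of 2 arrays, circles the run of 4, and black bars the mean ± SD (n = 3). ACLA-2 (8.20 to 8.54 induced, 6.15 to 6.51 uninduced) shows the widest separation and ACLA-3 overlaps.

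Of the 4 genes, 1 (ACLA-2) passed an adjusted p of 0.05 in the limma fit over all probes, in which 0.534% of the 38408 probes were called higher and 0 lower. At an unadjusted p under 0.05 the same fit had 1151 probes higher and 1053 lower. On 3 of the 4 genes every induced array lay above every uninduced array, as on 5.7% of all probes (the reverse held on 7.81%). Nothing is read from these counts, because the contrast was known when the genes were chosen. The ACLA-2 call was lost whichever of the 6 arrays was left out, although its difference then lay between 1.84 and 2.03. Calls over all probes fell as well, from 205 higher to between 56 and 154. ACLA-2 was not called either in the run of 4 by itself, where 0.365% of all probes were called higher. ACLA-1 and ACLA-2 were both called once the run was a block, where 0.992% of all probes were called higher.

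An offset shared by all probes of an array cancels when the changes of 2 genes are set against each other. The change of ACLA-2 exceeded that of ACLA-3 by 1.81 and that of ACLB-1 by 1.75 on the log2 scale. It exceeded that of ACLA-1 by 0.87, and the change of ACLA-1 exceeded that of ACLA-3 by 0.94 and that of ACLB-1 by 0.88. The changes of ACLB-1 and ACLA-3 differed by 0.06. The family was chosen on this contrast, so these gaps are a description too. Whether the probes of the 3 A subunit genes also read each other's transcripts was not tested.

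The differences were alike in the runs. ACLA-2 was 2.05 higher in the induced array of the run of 2 and 1.92 higher in the run of 4 (log2). For ACLA-1 the values were 1.14 and 1.06, for ACLB-1 0.18 and 0.23, and for ACLA-3 0.14 and 0.15. All 4 genes thus had the same sign in both runs, and the order of the 4 genes by size of difference was the same. The run of 2 has 1 array per group and the run of 4 has 2. The runs are parts of the contrast on which the family was chosen, so their likeness is a description and no support. The share of all probes with the same sign in both runs was not counted.

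**Figure D2:**
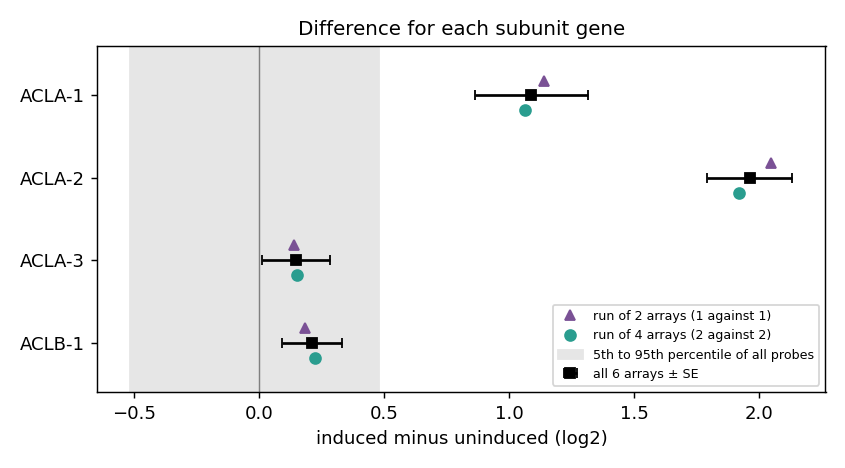
Induced minus uninduced value of each subunit gene (horizontal axis, log2) over all 6 arrays with its standard error (squares), in the run of 2 arrays (triangles) and in the run of 4 (circles); the grey band spans the 5th to the 95th percentile of all probes (-0.51 to 0.48). ACLA-1 and ACLA-2 lie above the band and ACLA-3 and ACLB-1 inside it in both runs. The band comes from the differences over all 6 arrays, and the spread of all probes within each run was not drawn.

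The difference between the runs was not used to choose the genes and was tested with the group in the model. On the deposited values the run of 2 was higher than the run of 4 for ACLA-1 by 0.48 ± 0.09 (SE, limma adjusted p = 0.0181), in a fit in which 36.8% of all probes were called higher. ACLA-2 gave 0.23, ACLA-3 0.20 and ACLB-1 0.06, and none of these passed the threshold. The median probe differed by 0.42 between the runs, so 3 of the 4 genes lay below the general offset and ACLA-1 close to it. After centring each array on its median all 4 genes were lower in the run of 2, with differences from -0.16 for ACLA-1 to -0.58 for ACLB-1, against -0.22 for the median probe in the same fit, so the direction of the run difference depends on the scaling. The calls changed with it. ACLA-3 and ACLB-1 were then called lower (limma adjusted p = 0.0231 and 0.0224) and ACLA-1 was not called (adjusted p = 0.259). The share of all probes called lower after centring was not counted, so nothing is read from these calls.

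Around the enzyme, 8 lists with 95 genes in all cover the supply of citrate, the handling of oxaloacetate and malate, the users of cytosolic acetyl-CoA and the separate plastid pool. Of these genes 8, in 4 of the lists, had a named probe. None was called higher or lower by limma (adjusted p from 0.779 to 1.0), where 0.568% of 16550 named genes were called higher and 0 lower. At an unadjusted p under 0.05, 1 was higher and 0 lower, where 1151 of all 38408 probes were higher and 1053 lower. The median log2 difference of the 8 genes was -0.02, against -0.004 over all named genes.

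In citrate supply, 2 of 12 genes were measured. cICDH, the cytosolic NADP-dependent isocitrate dehydrogenase, which draws on the same citrate through isocitrate, had values of 11.43, 11.27 and 11.28 in induced cells, against 11.25, 11.23 and 11.24 in uninduced cells, a log2 difference of 0.09 ± 0.12 (SE). AT5G19760, the other measured locus of the list, differed by 0.02 ± 0.12. Both differences were smaller than their standard errors.

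Of the 14 mevalonate pathway genes, which carry cytosolic acetyl-CoA towards sterols, 2 were measured. AT1G31910 differed by -0.07 ± 0.14 and AT3G54250 by 0.14 ± 0.13 (log2, SE). The sign of AT1G31910 turned, to 0.02, without induced replicate 3. The lists for fatty acid elongation, flavonoid entry, oxaloacetate and malate handling and histone acetyltransferases were not analysed here, as no probe was named for them.

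In the plastid list, 3 of 12 genes were measured and all 3 were slightly negative without passing the test. AT2G34590 had values of 8.58, 8.88 and 9.01 in induced cells, against 9.34, 9.13 and 9.06 in uninduced cells, a log2 difference of -0.35 ± 0.17 (SE, limma adjusted p = 0.951). The difference came mostly from the run of 2, at -0.76, against -0.15 in the run of 4. AT4G16155 gave -0.23 ± 0.15, and ACS, the acetyl-CoA synthetase that activates acetate in plastids, -0.05 ± 0.14. The sign of ACS turned without induced replicate 2 or uninduced replicate 1 (up to 0.02).

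Of the 5 genes listed for the Golgi steps of wall polysaccharide acetylation, 1 was measured. AT3G03210 had values of 6.74, 6.23 and 6.43 in induced cells, against 6.16, 5.71 and 5.81 in uninduced cells, a log2 difference of 0.57 ± 0.20 (SE). Every induced array lay above every uninduced one, as on 5.7% of all probes, with a gap of 0.07. Of all probes, 3.34% had a larger difference. It was the one gene of the 8 with an unadjusted p under 0.05 (0.0315), and did not pass the adjusted test (limma adjusted p = 0.779, or 0.110 in the fit blocked by run).

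A further 5 lists, added once it was known which genes had a probe, hold 52 genes, of which 6 were measured. None of the 6 was called by limma, where 0.568% of 16550 named genes were called higher and 0 lower. At an unadjusted limma p under 0.05, 1 of the 6 was higher, against 1151 of all 38408 probes higher and 1053 lower. Nothing is read from counts over so few genes. The 4 measured genes of the mitochondrial pyruvate dehydrogenase complex, which makes the acetyl-CoA from which citrate is built, lay between -0.06 and -0.02 (log2). ICL, isocitrate lyase of the glyoxylate cycle, was the largest of the 6, at 0.59 ± 0.24 (SE, limma adjusted p = 0.866). Its groups overlapped slightly (gap of -0.0035), and its difference was 0.59 in each run.

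**Figure D3:**
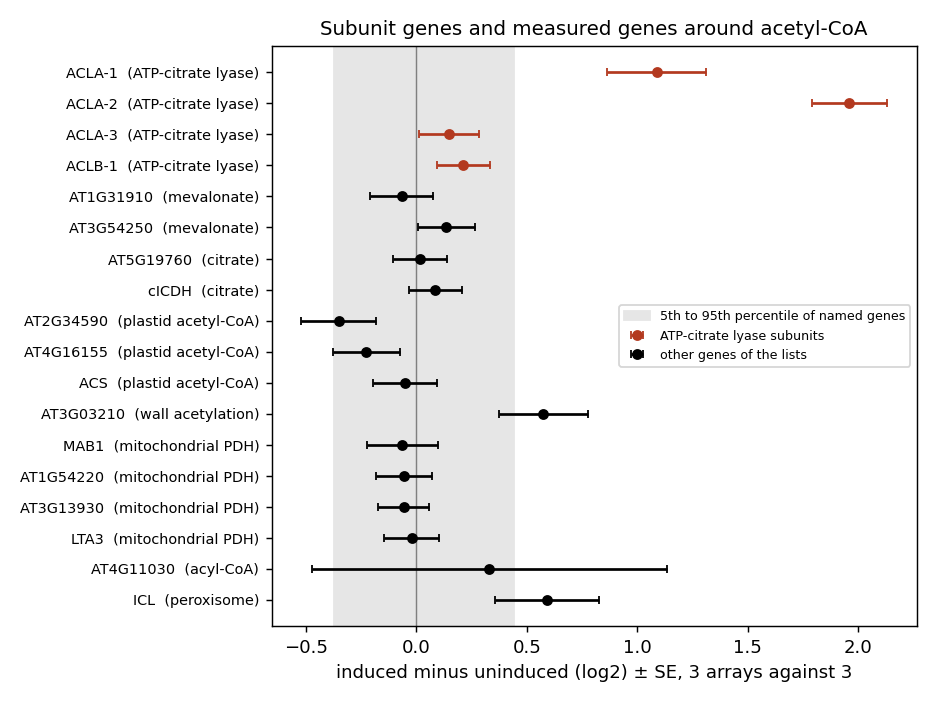
Induced minus uninduced value (horizontal axis, log2, with the standard error, 3 arrays against 3) for the 4 subunit genes in red and for the 14 measured genes of the lists around acetyl-CoA in black; the grey band spans the 5th to the 95th percentile of named genes (-0.37 to 0.44). ACLA-2 and ACLA-1 lie farthest to the right, and AT3G03210 and ICL are the only list genes above the band.

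Profiles like that of ACLA-2 were sought among all named genes outside the family, by the root mean square difference over the 6 arrays after each array was centred on its median and each gene on its mean. The 5 closest were GH9B5, a family 9 glycosyl hydrolase (0.12 log2 units), AT5G59845 (0.13), AT4G21250 (0.15), AT5G54370 (0.15) and AT2G03200 (0.17). The ACLA-2 contrast dominates this measure, so these genes share its size of difference by construction, and the 6 arrays share 2 groups and 2 runs. GH9B5 had values of 9.65, 9.32 and 9.41 in induced cells, against 7.75, 7.53 and 7.57 in uninduced cells (log2), a difference of 1.85 ± 0.15 (SE). The other 4 differed by 1.69 (AT2G03200) to 2.03 (AT5G54370). Pearson correlations with ACLA-2 over the 6 arrays were between 0.989 and 0.994.

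**Figure D4:**
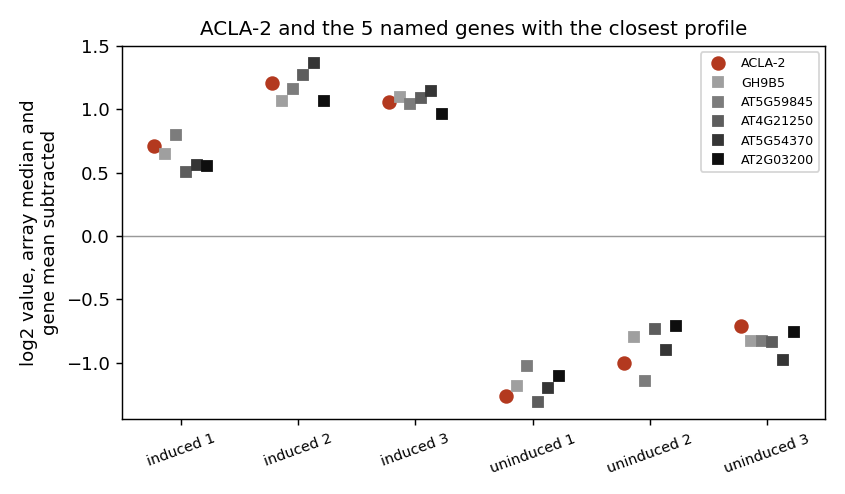
Log2 values of ACLA-2 (red circles) and of the 5 named genes with the closest profile (grey to black squares) on each array, after subtraction of the array median and of the gene's mean over the arrays. All 6 genes lie above 0 on each induced array and below 0 on each uninduced array.

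On the chromosomes, 5 of the 10 protein-coding genes that directly neighbour the 5 loci in the TAIR10.1 gene order had a named probe. Limma called 0 of them, and 0.568% of 16550 named genes higher and 0 lower, so nothing is read from this count. Neither neighbour of ACLA-2 was among the 5. Beside ACLA-3, which hardly differed between the groups, lies AT1G09440, with values of 7.28, 6.70 and 6.73 in induced cells, against 4.45, 2.62 and 2.33 in uninduced cells (log2). The uninduced values of the run of 4 were close to the 5th percentile of their arrays, and the groups lay 2.24 apart. The log2 difference was 2.82 in the run of 2 and 4.24 in the run of 4, and is a lower bound wherever the uninduced values are background, which was not estimated. Over all arrays its 3.77 ± 0.59 (SE) missed the threshold (limma adjusted p = 0.121). It passed once the run was a block (limma adjusted p = 0.0171), where 0.992% of all probes were called higher. The other 4 neighbours differed by -0.18 to -0.05.

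Of 16 marker genes for other cell states, 4 had a named probe. AUR1 and AUR2, mitotic kinases of dividing cells, differed by -0.35 ± 0.17 and -0.36 ± 0.14 (log2, SE), without passing the test (limma adjusted p = 0.957 and 0.865). On both, every induced array lay below every uninduced array, as on 7.81% of all probes. RCA, rubisco activase of photosynthetic cells, averaged 4.77 ± 0.40 in induced cells and 4.67 ± 0.55 in uninduced cells (SD, n = 3 each), below the median of every array. The phloem gene OPS averaged 5.34 ± 0.12 in induced cells and 5.14 ± 0.21 in uninduced cells. Their part in the differences of the subunit genes was not tested.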

How the data were processed

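Total RNA of 6 samples was biotin-labelled for Affymetrix AraGene arrays, per the labels. For each probe and array the authors deposited 1 value, made with Affymetrix Expression Console 1.3 according to the submitters' processing notes. A range of 0.30 to 14.05 led to these deposited values being taken as log2. Their log base, background correction, summarisation and genome build were not given in the sources used here, and coordinates are left out.

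Groups follow the labels' stimulation. Replicate numbers only name arrays. Of 38408 probes, 16722 had 1 gene in the array annotation, updated by gene identifier through a TAIR10.1 RefSeq table, and 20927 had none. All 6 values of 7132 probes were identical to those of another probe, which held for no subunit probe. Ranks and shares over all probes count each of these separately. Where a gene had several probes, the one with the highest mean was used. Groups were compared without further normalization by limma 3.58.1 (lmFit and eBayes, R 4.3.3) over all probes, with Benjamini-Hochberg adjustment and a threshold of 0.05. A prior run on simulated data checked only that planted differences were recovered, and set no condition on the calls. Genes named are all measured subunits, per list the called genes and up to 3 others by size, and the 5 closest profiles to the subunit with the largest difference. AT1G09440, ICL and the marker genes fall outside that rule and were named after their values were seen. Members and lists were chosen with earlier results of these data known.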

Additional observations from a re-analysis of the deposited data

How the results depend on the processing

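Of the settings tried, 11 can move the difference of a subunit gene (6 leave out an array; the others are quantile normalization, centring, array weights and either run alone), and their 44 values lay within 1 SD between replicate arrays of the reported ones. The remaining settings change only the variance or the adjustment. Their ranges over arrays left out were 1.84 to 2.03 for ACLA-2, 0.91 to 1.24 for ACLA-1, 0.16 to 0.24 for ACLB-1 and 0.08 to 0.21 for ACLA-3. The calls were less stable, and the cause was not tested. The number of subunit genes called higher was 2 with array weights, after blocking by the array-number run, and with that block plus a variance trend and robust estimation, where ACLA-1 joined ACLA-2. It was 0 in the run of 4 arrays alone (140 probes called higher) and by the unmoderated test (138 called higher). With any array left out it was 0 as well (0 to 0). Over all probes, calls higher were 351 with a variance trend and robust estimation, 318 after quantile normalization, 457 with array weights, 381 with the block, 802 with block, trend and robust estimation, and 56 to 154 with arrays left out. Calls lower, 0 as reported, were 14, 5, 28, 13 and 423 in the first 5 of these settings, 1 without the 25% of probes with the lowest mean, 3 in the run of 4 alone, 21 by the unmoderated test and 1 with identical rows counted once. None of the 8 list genes was called in any of 136 recomputed values. Signs turned 7 times, all at adjusted p of at least 0.931. AT5G19760 gave -0.0087 with array weights, -0.005 in the run of 4 alone and -0.0291 to 0.0689 with arrays left out, AT1G31910 -0.16 to 0.0188 and ACS -0.13 to 0.021. The run difference of ACLA-1 was -0.16 after centring, 0.31 after quantile normalization (adjusted p = 0.099) and 0.48 without the group as a term (adjusted p = 0.465). Centring gave -0.41 for ACLA-2, -0.45 for ACLA-3 and -0.58 for ACLB-1 (the last 2 called, with no share over all probes counted). Quantile normalization gave -0.0915 for ACLA-2 and -0.11 for ACLB-1. The block above is the array-number run. The labels give no replicate numbers, so arrays were not paired by replicate.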
